A study of Mus musculus with 6 samples.

Results

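The interleukin-1 (IL-1) family and inflammasome genes described here are 10 genes taken by symbol from a table of read counts for 14788 gene symbols: the cytokine genes Il1b, Il1a and Il18, the antagonist gene Il1rn, the decoy receptor gene Il1r2, the sensor genes Nlrp3 and Nlrp1b, the adaptor gene Pycard, the protease gene Casp1 and the pore gene Gsdmd. All 10 symbols were in the table and all 10 passed the filter on low counts. The counts come from RNA sequencing of type-2 conventional dendritic cells (cDC2s), the dendritic cells that present antigen mainly to CD4 T cells, from the spleens of C57BL/6 mice. There were 3 libraries of Arhgef1-/- cells (called the knockout here) and 3 of WT cells. The labels name no treatment, age, sex, pooling of mice or sorting gate, and they do not say whether the deletion was in all cells or which part of the gene was removed.

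Arhgef1 encodes a guanine nucleotide exchange factor through which certain G-protein-coupled receptors activate RhoA. IL-1 beta and IL-18 are made as inactive precursors and are cut by caspase-1. Caspase-1 is activated on an inflammasome, a complex that a sensor such as NLRP3 or pyrin forms with the adaptor ASC (the product of Pycard). Caspase-1 also cuts gasdermin D, which then opens pores through which the cytokines leave the cell. IL-1 alpha and IL-1 beta share a receptor, which the product of Il1rn blocks, while the decoy receptor encoded by Il1r2 binds IL-1 without signalling. In myeloid cells Il1b is known as a gene whose RNA appears on priming by microbial or cytokine signals, and pyrin, the product of Mefv, is known to be held in check by active RhoA.

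Total counts ran from 8408325 to 11714365 in the knockout libraries and from 8546267 to 10702215 in the WT libraries, so that 1 read was worth between 0.0853 and 0.118 CPM (counts scaled to a fixed library size). Arhgef1 itself stood at 45.6% of its WT level in the knockout (log2 fold change -1.13 ± 0.11 (SE), edgeR adjusted p = 6.96e-06). Of 14 cDC2 defining markers 13 were tested, among them Itgax, Flt3, Zbtb46, Irf4 and Sirpa, while Clec10a averaged 0.278 CPM in the knockout and 0.39 CPM in WT. Of the 13, 7 were called lower in the knockout, Cd209a (33.2% of its WT level), Cd4 (62.9%) and Sirpa (80.3%) among them. Of all tested genes, 4.58% were called lower. The read names in the labels carry one lane and prefix for the knockout libraries and another for the WT libraries, so lane and genotype cannot be told apart. Whether replicates are separate mice is not stated in the labels, so every p-value measures the spread between these libraries.

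In the knockout 5 of the 10 genes fell: Il1b, Il18, Il1r2, Nlrp1b and Gsdmd. None of the 10 rose by edgeR, DESeq2 or limma-voom, although 1, Il1rn, was higher at an unadjusted p under 0.05. Il1a, Il1rn, Nlrp3, Pycard and Casp1 did not pass the test. Over all 11504 tested genes, 4.58% were called lower and 5.09% were called higher (edgeR quasi-likelihood test, Benjamini-Hochberg adjusted p under 0.05, no fold threshold). The median log2 fold change of the 10 genes was -0.49, against 0.00 over all tested genes. In 5 of the 10 genes all 3 knockout values lay below all 3 WT values, a pattern shown by 13.5% of tested genes, and in 1, Il1rn, all 3 lay above, as in 13.7% of tested genes. In bulk libraries fewer cells of a type and less RNA per cell cannot be told apart. In the same libraries 14 of 17 macrophage markers also fell, and the 17 summed to 290 to 463 CPM in the knockout and 806 to 1260 CPM in WT.

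For the cytokine and receptor genes with the largest falls that passed the test, the DNA around 1 annotated start each is printed. Which start was used in these cells was not measured, and the Il1r2 window lies inside the gene as GENCODE annotates it, which begins at position 40074079. Of the 10 genes, 9 had a window in the RefSeq promoter table (build GRCm38.p6), reaching from 250 bases before to 50 bases after an annotated start. Each is written 5′ to 3′ on the strand of its gene, with capitals at matches to a TATA box (TATAAA), a PU.1 core (GAGGAA), a C/EBP site (TTGCNNAA), an NF-kB site or a CArG box, the last being the element bound by SRF, a transcription factor that responds to RhoA and actin. The Il1b window is chr2:129371090-129371389, minus strand. The Il18 window is chr9:50554450-50554749, plus strand. The Il1r2 window is chr1:40085843-40086142, plus strand.
Il1b: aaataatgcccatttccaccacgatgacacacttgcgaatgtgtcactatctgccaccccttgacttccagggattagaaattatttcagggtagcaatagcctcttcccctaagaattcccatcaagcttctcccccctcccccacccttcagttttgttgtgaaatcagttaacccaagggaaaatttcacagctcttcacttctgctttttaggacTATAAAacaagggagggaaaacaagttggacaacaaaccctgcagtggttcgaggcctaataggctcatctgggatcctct
Il18: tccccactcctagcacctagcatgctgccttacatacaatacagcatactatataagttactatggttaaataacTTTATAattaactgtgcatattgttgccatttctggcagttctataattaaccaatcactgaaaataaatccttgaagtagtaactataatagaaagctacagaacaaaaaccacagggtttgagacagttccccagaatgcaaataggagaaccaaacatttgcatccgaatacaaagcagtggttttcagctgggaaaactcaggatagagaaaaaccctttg
Il1r2: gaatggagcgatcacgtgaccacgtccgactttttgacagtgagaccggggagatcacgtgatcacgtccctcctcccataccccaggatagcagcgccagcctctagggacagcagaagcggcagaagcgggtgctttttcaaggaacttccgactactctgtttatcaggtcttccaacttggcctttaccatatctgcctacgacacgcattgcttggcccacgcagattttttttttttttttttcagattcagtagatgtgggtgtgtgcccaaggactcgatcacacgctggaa

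Both strands were searched. The Il1b window held 1 match, a TATA box that begins 31 bases before the start. The Il18 window also held 1, TATA box letters on the opposite strand that begin 175 bases before the start, and the Il1r2 window held none of the 5 motifs. Among all 32851 windows of the table, 13.6% held the TATA box letters, 28.3% the PU.1 core, 10.8% the C/EBP letters, 4.51% the NF-kB letters and 1.63% the CArG letters. No match overlapped another in these windows.

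Il1b was the most abundant of the 10 genes and its level in the knockout was 50.2% of that in WT. The gene lies on chromosome 2 of mm10 (129364570 to 129371139, minus strand, ENSMUSG00000027398.13). Its counts in knockout replicates 1, 2 and 3 were 3279, 3732 and 5684, and in WT replicates 1, 2 and 3 they were 7920, 6159 and 8731. Scaled to library size, the levels were 382, 386 and 485 CPM in the knockout and 759, 709 and 1030 CPM in WT. The highest knockout library was below the lowest WT library, and the third replicate was the highest in each genotype. The mean was 417 ± 58.2 CPM in the knockout and 833 ± 173 CPM in WT (SD, n = 3 each). On the log2 scale this was a change of -1.0 ± 0.12 (SE; edgeR adjusted p = 4.59e-05).

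Il1a, the gene next to Il1b and 54597 bases from it, encodes IL-1 alpha, which acts on the same receptor and needs no inflammasome. It was near the limit of detection, with 13, 4 and 2 counts in knockout replicates 1, 2 and 3 and 46, 18 and 10 counts in WT replicates 1, 2 and 3. The groups overlapped, since knockout replicate 1, at 1.51 CPM, lay above WT replicate 3, at 1.18 CPM. Its log2 fold change was -1.92 ± 0.79 with a 95% interval of -3.57 to -0.26, and it did not pass (edgeR adjusted p = 0.149). Without knockout replicate 1 the value was -3.11 and passed (edgeR adjusted p = 0.0496), and without WT replicate 1 it was -1.25 (edgeR adjusted p = 0.567). Over 222 of its exonic bases Il1a overlaps Gm14023, annotated on the other strand, and Il1b shares 25 bases with Il1bos, so that without a stated strand setting these reads cannot be told apart.

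Il18 encodes the other cytokine that caspase-1 matures. Its levels were 13.5, 13.1 and 12.7 CPM in the knockout and 22.9, 25.4 and 25 CPM in WT. The libraries of each genotype lay close together and the 2 groups were far apart relative to that spread. The log2 fold change was -0.90 ± 0.20 (SE; edgeR adjusted p = 0.00878). The variation between knockout libraries was 3.05% of their mean, below the 8.75% that counting error alone gives at this depth.

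The antagonist gene Il1rn had the opposite sign. Its levels were 13.9, 11.1 and 7.50 CPM in the knockout, against 7.09, 5.30 and 6.61 CPM in WT. Every knockout library lay above every WT library, but knockout replicate 3 was only just above WT replicate 1. The log2 fold change was 0.76 ± 0.32 (SE), with a 95% interval of 0.09 to 1.44, and it did not pass the test (edgeR adjusted p = 0.160).

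Il1r2 stood at 49.3% of its WT level in the knockout. Its levels were 26.3, 41.0 and 26.9 CPM in the knockout and 72.4, 59.1 and 59.1 CPM in WT. Knockout replicate 2 was the highest of its group and still lay below the lowest WT library. The log2 fold change was -1.02 ± 0.18 (SE; edgeR adjusted p = 0.00102). The signalling receptor and its partners gave little signal in either genotype: Il1r1 averaged 1.39 CPM in the knockout and 1.49 CPM in WT, and Il1rap averaged 1.67 CPM in the knockout and 0.98 CPM in WT.

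**Figure D1:**
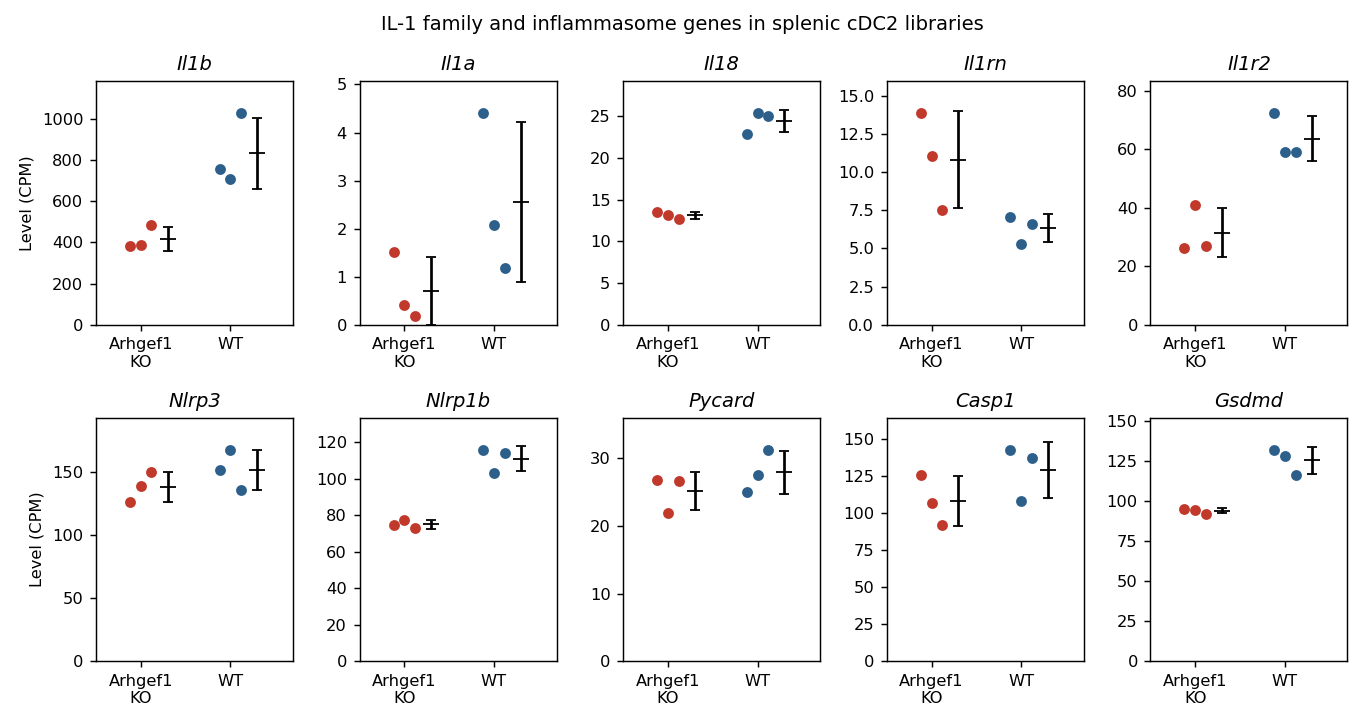
Level in CPM of each of the 10 genes in the 3 Arhgef1 knockout libraries (red, left) and the 3 WT libraries (blue, right), with replicates 1 to 3 from left to right and the mean ± SD in black (n = 3 each; each axis starts at 0 and has its own scale, and the Il1a bar is cut at 0). For Il1b the knockout libraries sit between 382 and 485 CPM, below the WT libraries at 709 to 1030 CPM, while the groups of Il1a, Nlrp3, Pycard and Casp1 overlap.

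The ratio of agonist to antagonist RNA was taken within each library, where library size cancels. It was chosen with earlier results of these data known and restates the opposite signs of Il1b and Il1rn, so it is given as a description with no test. Per Il1rn read there were 27.4, 34.7 and 64.2 Il1b reads in knockout replicates 1, 2 and 3, against 106, 132 and 155 in WT replicates 1, 2 and 3. The groups did not overlap. On the log2 scale the ratio averaged 5.30 ± 0.63 in the knockout and 7.02 ± 0.27 in WT (SD, n = 3 each), a difference of -1.72. The ratio of Il1b to Il18 averaged 4.98 ± 0.24 in the knockout and 5.07 ± 0.28 in WT on the log2 scale (exact permutation test, two-sided, p = 0.7, where 3 against 3 cannot go below 0.1). Its difference of -0.09 was smaller than the spread between replicates, and it was 0.06 without WT replicate 3.

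**Figure D2:**
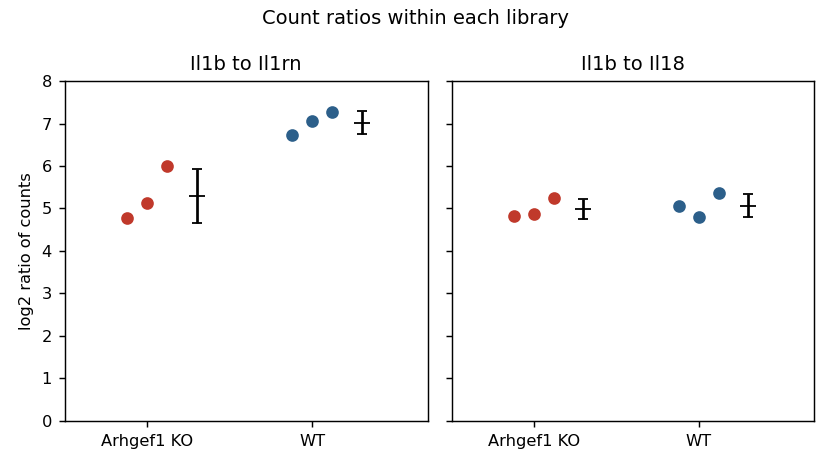
The log2 ratio of Il1b to Il1rn counts (left panel) and of Il1b to Il18 counts (right panel) in each library, with 0.5 added to each count, for the Arhgef1 knockout (red) and WT (blue); black marks give the mean ± SD (n = 3 each). The Il1b to Il1rn ratio is below 6.1 in each knockout library and above 6.7 in each WT library, while the Il1b to Il18 ratios overlap.

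Among the sensors, Nlrp1b fell and Nlrp3 did not pass the test. Nlrp1b, a sensor whose alleles differ between mouse strains in their response to anthrax lethal toxin, had 74.7, 77.3 and 72.9 CPM in the knockout and 116, 103 and 114 CPM in WT. The highest knockout library was well below the lowest WT library, and the log2 fold change was -0.57 ± 0.11 (SE; edgeR adjusted p = 0.00305). Nlrp3, which responds to potassium efflux and many danger signals, had 126, 139 and 150 CPM in the knockout and 152, 168 and 136 CPM in WT. The groups overlapped, and the 95% interval of its log2 fold change ran from -0.36 to 0.10 (-0.13 ± 0.11, edgeR adjusted p = 0.533).

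Nlrp1b belongs to a cluster of related copies on chromosome 11, so the counting could divide or drop any shared reads and its value is uncertain. How alike the copies are in sequence was not measured. The pseudogene Nlrp1c-ps had 37.1, 29.5 and 34.3 CPM in the knockout and 85.0, 62.4 and 53.2 CPM in WT, a log2 fold change of -0.99 ± 0.17 (edgeR adjusted p = 0.00102). Nlrp1a, named after its value was seen, had -0.62 ± 0.17 (edgeR adjusted p = 0.0299). The 3 copies summed to 139, 148 and 137 CPM in the knockout and 248, 223 and 214 CPM in WT, so that the lower level was also present in the sum. The sum does not depend on how counted reads were divided among the copies, but shared reads that were dropped would be missing from it too.

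The adaptor and protease genes did not pass the test. Pycard had 26.8, 21.9 and 26.7 CPM in the knockout and 25, 27.6 and 31.3 CPM in WT, with a log2 fold change of -0.15 ± 0.18 (95% interval -0.54 to 0.23, edgeR adjusted p = 0.692). Casp1 had 126, 107 and 91.9 CPM in the knockout and 143, 108 and 137 CPM in WT, with a log2 fold change of -0.26 ± 0.13 (95% interval -0.54 to 0.01, edgeR adjusted p = 0.249). The 2 genotypes overlapped in both genes. A stretch of 485 exonic bases of Pycard is shared with Gm45205 on the other strand, which cannot be told apart here.

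Gsdmd, the pore gene, had 95.2, 94.4 and 92.1 CPM in the knockout and 132, 128 and 116 CPM in WT. The knockout libraries were nearly equal and lay below each WT library. Its log2 fold change, -0.42 ± 0.11 (SE; edgeR adjusted p = 0.0185), was the smallest of the 5 that passed. Its call depended on which library was left out. It did not pass without WT replicate 1 (-0.38, edgeR adjusted p = 0.103), WT replicate 2 (-0.40, edgeR adjusted p = 0.0816) or knockout replicate 3 (-0.40, edgeR adjusted p = 0.0530). It passed without WT replicate 3 (edgeR adjusted p = 0.0261), knockout replicate 1 (edgeR adjusted p = 0.0368) or knockout replicate 2 (edgeR adjusted p = 0.0451).

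**Figure D3:**
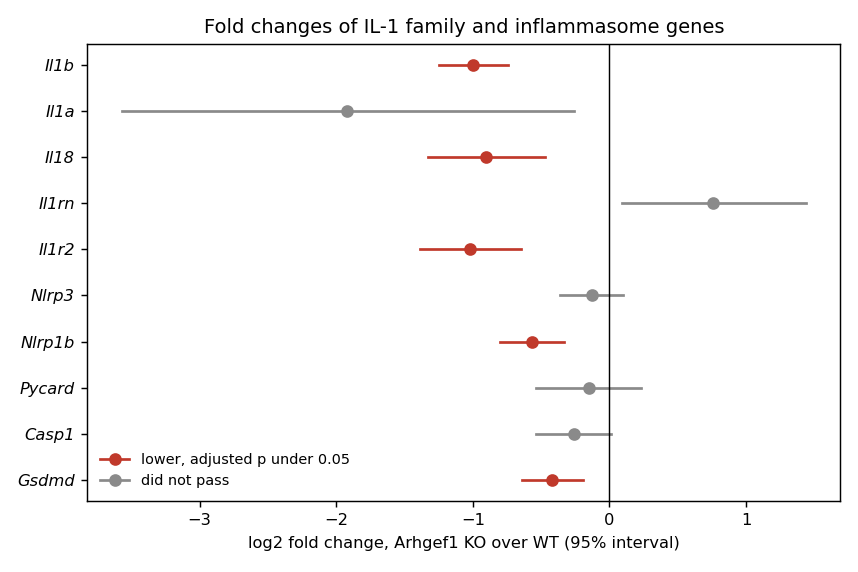
Log2 fold change of the Arhgef1 knockout over WT for the 10 genes, with 95% intervals from the edgeR fit, ordered by role from cytokines at the top to the pore gene at the bottom; red marks the 5 genes lower at adjusted p under 0.05 and grey the 5 that did not pass. The called values run from -1.02 for Il1r2 to -0.42 for Gsdmd, and Il1rn is the only one of the 10 with a value above 0.

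Set on a scale of CPM per kilobase of the longest annotated coding transcript, Il1b led by a wide margin, with 308 ± 42.9 in the knockout and 614 ± 127 in WT (SD, n = 3 each). That placed it 72nd in the knockout and 27th in WT among 9913 tested genes with a transcript length. Casp1 followed with 72.2 ± 11.3 in the knockout and 86.5 ± 12.3 in WT, then Gsdmd with 52.4 ± 0.910 in the knockout and 69.9 ± 4.70 in WT. Nlrp3 was at 34.5 ± 3.02 in the knockout and 37.8 ± 3.96 in WT on the same scale. Il1r2 was at 22.1 ± 5.85 in the knockout, within its spread of Nlrp1b at 18.1 ± 0.530, and Il18 was lower, at 15.2 ± 0.465. In WT the mean of Il1r2, at 44.8 ± 5.43, was above that of Nlrp3. That of Il18, at 28.4 ± 1.59, was above that of Nlrp1b, at 26.9 ± 1.68. In both pairs the ranges of mean ± SD overlapped in WT, so the order within each pair is uncertain there. Il1rn, at 4.37 ± 1.29 in the knockout and 2.56 ± 0.375 in WT, and Il1a, at 0.354 ± 0.362 in the knockout and 1.29 ± 0.844 in WT, were the lowest. Pycard was left out of this order, because its annotated transcript of 3800 bases is longer than the whole RefSeq gene of 2495 bases.

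The genes whose profile over the 6 libraries came nearest to that of Il1b were Tmem192, Cdhr3, Nr1d2, Neurl3 and Ext2, by the root mean square distance between log2 CPM values centred on each gene's mean, over 8070 candidate genes. Their distances were 0.127, 0.135, 0.137, 0.161 and 0.167 on the log2 scale. Nr1d2 encodes the circadian repressor REV-ERB beta and Ext2 a heparan sulfate polymerase subunit. Neurl3, a ubiquitin ligase gene, was at 251 ± 28.2 CPM in the knockout and 470 ± 52.5 CPM in WT (SD, n = 3 each). Among the 9 other members Il18 was nearest, at 0.217, followed by Nlrp1b at 0.288 and Il1r2 at 0.352, and Il1a was farthest, at 1.035. Set among the candidates, Il18, Nlrp1b and Il1r2 would rank 29, 125 and 360. The distance keeps the difference between the genotypes, so a fold change like that of Il1b brings a gene near. Whether these genes are regulated together was not tested.

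The surrounding pathway was covered by 8 lists, of which 105 genes that are not among the 10 were tested. Of these, 12 fell and 6 rose, and the median log2 fold change was -0.07, against 4.58% called lower, 5.09% called higher and a median of 0.00 over all tested genes. The 12 became 6 without WT replicate 1 and 7 without WT replicate 3. The 6 became 3 without WT replicate 1 or 3, 2 without WT replicate 2 or knockout replicate 2, and 3 with upper-quartile factors or the replicate block.

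Other inflammasome sensors and adaptors held 5 of the 12 falls, out of 14 tested, with no rise, and their median was -0.37 on the log2 scale. Over all tested genes 4.58% were called lower and 5.09% higher. Mefv, the pyrin gene, had 112, 135 and 129 CPM in the knockout and 223, 192 and 214 CPM in WT. Its groups were far apart, and on the log2 scale Mefv differed by -0.74 ± 0.10 (SE; edgeR adjusted p = 1.66e-04). Aim2, a sensor of cytosolic DNA, had 256 ± 39.0 CPM in the knockout and 336 ± 16.3 CPM in WT (SD, n = 3 each), which is -0.40 ± 0.10 on the log2 scale (edgeR adjusted p = 0.0210). Nlrc4, which forms inflammasomes with the NAIP receptors for bacterial proteins, had 52.1 ± 12 CPM in the knockout and 78.7 ± 1.49 CPM in WT, or on the log2 scale -0.59 ± 0.15 (edgeR adjusted p = 0.0179). The remaining 2 of the 5 were Nlrp1c-ps and Nlrp1a, of the same cluster as Nlrp1b, where the division of reads is uncertain. Mefv and Nlrp1c-ps passed the test without each library in turn. Aim2 did not pass without WT replicate 1 (-0.37), WT replicate 3 (-0.38) or knockout replicate 3 (-0.27). Nlrc4 did not without WT replicate 1 (-0.61), 2 (-0.59) or 3 (-0.58) or knockout replicate 1 (-0.50) or 2 (-0.50), and Nlrp1a did not without WT replicate 1 (-0.68), 2 (-0.52) or 3 (-0.67) or knockout replicate 1 (-0.51) or 3 (-0.55).

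**Figure D4:**
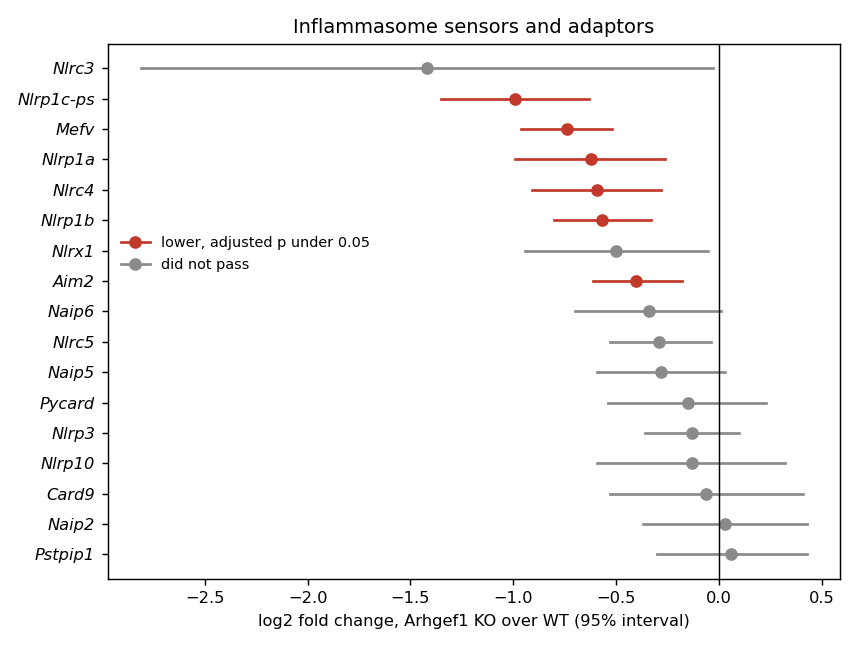
Log2 fold change of the Arhgef1 knockout over WT with 95% intervals for the 14 tested genes of the list of other inflammasome sensors and adaptors together with Nlrp3, Nlrp1b and Pycard, ordered by value; red marks genes lower at adjusted p under 0.05. Mefv at -0.74 and Nlrp1c-ps at -0.99 stand among the genes that passed, and the highest value is 0.06, that of Pstpip1.

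In the other lists nearest to the inflammasome few genes were called. Of 25 inflammasome regulators 2 rose and 2 fell, where 5.09% of all tested genes were called higher and 4.58% lower. Dpp9, whose protein restrains NLRP1, rose (0.57 ± 0.18, edgeR adjusted p = 0.0480), as did the chaperone gene Hsp90ab1 (0.32 ± 0.10, edgeR adjusted p = 0.0455), while Fbxl2 (-2.07 ± 0.64, edgeR adjusted p = 0.0492) and Pydc4 (-1.07 ± 0.27, edgeR adjusted p = 0.0173) fell. Dpp9 lost its call without any 1 of the 6 libraries (0.45 to 0.65) and by limma-voom (adjusted p = 0.0529). It also did so with upper-quartile factors (edgeR adjusted p = 0.0601) and with the replicate block (edgeR adjusted p = 0.0799). Fbxl2 did so without any 1 library (-2.42 to -1.68), with total counts (edgeR adjusted p = 0.0535) and with no filter (edgeR adjusted p = 0.0548). It also lost its call with the replicate block (edgeR adjusted p = 0.0717) and by limma-voom (adjusted p = 0.0661). Hsp90ab1 lost its call without WT replicate 1 (0.28), 2 (0.31) or 3 (0.36) or knockout replicate 2 (0.16). The same held with upper-quartile factors (edgeR adjusted p = 0.0638) and with the replicate block (edgeR adjusted p = 0.0623). Pydc4 lost it without WT replicate 1 (-0.55) or knockout replicate 2 (-1.02) or 3 (-0.95) and by DESeq2 (adjusted p = 0.104). Of 12 tested genes for other caspases and membrane rupture 1 rose and 1 fell. Serpinb1a, a protease inhibitor gene, had 11.4 ± 0.886 CPM in the knockout and 4.47 ± 1.28 CPM in WT (1.35 ± 0.33, edgeR adjusted p = 0.0141), a call not made when WT replicate 2 (1.16) or knockout replicate 2 (1.30) was left out. Dfna5, which encodes gasdermin E, a pore protein cut by caspase-3, had 9.09 ± 1.07 CPM in the knockout and 18.2 ± 2.02 CPM in WT (-1.0 ± 0.25, edgeR adjusted p = 0.0153), and lost its call without WT replicate 3 (-0.91).

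On the side of the receptor, 0 of 6 tested genes for IL-1 family receptors and binding proteins and 0 of 18 genes for IL-1 receptor signalling passed the edgeR test. The genes named from these lists were Il18rap, a subunit of the IL-18 receptor (1.24 CPM in the knockout and 3.97 CPM in WT, edgeR adjusted p = 0.0954), Sigirr (edgeR adjusted p = 0.372), the kinase gene Irak4 (-0.28 ± 0.10, edgeR adjusted p = 0.0908) and the IKK alpha gene Chuk (-0.27 ± 0.09, edgeR adjusted p = 0.0748). An unadjusted edgeR p under 0.05 was held by 1 of the 6 receptor genes and 3 of the 18 signalling genes. DESeq2 called 0 of the 6 and 2 of the 18, namely Irak4 (DESeq2 adjusted p = 0.0441) and Chuk (DESeq2 adjusted p = 0.0399), and limma-voom called 0 and 0. Il18rap passed without knockout replicate 1 (-2.48, edgeR adjusted p = 0.0363). Of the other IL-1 family cytokines only Il1f9 was in the table, with at most 2 counts in a library.

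Among 21 genes for the transcription and RNA decay of Il1b, 3 rose and 3 fell, and their median was -0.03 on the log2 scale. Over all tested genes 5.09% were called higher and 4.58% lower. The rises included Nfkb1, which encodes the p50 subunit of NF-kB (671 ± 36.0 CPM in the knockout and 511 ± 30.9 CPM in WT, 0.39 ± 0.08, edgeR adjusted p = 0.00353), and Bhlhe40, a repressor of Il10 in mouse T cells (425 ± 61.0 CPM in the knockout and 284 ± 7.39 CPM in WT, 0.58 ± 0.10, edgeR adjusted p = 8.73e-04). The falls included Zfp36l1, whose protein promotes decay of RNAs with AU-rich elements (357 ± 31.0 CPM in the knockout and 478 ± 4.66 CPM in WT, -0.42 ± 0.08, edgeR adjusted p = 0.00326), and Tnfaip3, a brake on NF-kB (154 ± 8.44 CPM in the knockout and 205 ± 10.6 CPM in WT, -0.42 ± 0.09, edgeR adjusted p = 0.00853). The remaining 2, named after their values were seen, were Sfpi1, the older symbol of the PU.1 gene Spi1 (0.32 ± 0.09, edgeR adjusted p = 0.0421), and Zc3h12a, an RNase gene (-0.88 ± 0.22, edgeR adjusted p = 0.0168). Tnfaip3 lost its call without WT replicate 1 (-0.39), Zc3h12a without WT replicate 2 (-0.49) or knockout replicate 2 (-0.82), and Sfpi1 without WT replicate 1 (0.28), 2 (0.35) or 3 (0.32) or knockout replicate 2 (0.33) or 3 (0.23) and with upper-quartile factors (edgeR adjusted p = 0.0655). Of 9 tested genes among other inflammatory products of cDC2s, Ptgs2, the cyclooxygenase-2 gene, fell, with 473 ± 36.2 CPM in the knockout and 683 ± 58.5 CPM in WT (-0.53 ± 0.09, edgeR adjusted p = 5.16e-04). Tnf had 61.3, 47.5 and 28.6 CPM in the knockout and 37.1, 28.1 and 33.0 CPM in WT and did not pass (0.48 ± 0.22, edgeR adjusted p = 0.196), except without knockout replicate 3 (0.73, edgeR adjusted p = 0.0193).

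Markers of other cells that can carry these transcripts were measured in the same libraries. The 17 macrophage markers summed to 463, 290 and 305 CPM in knockout replicates 1, 2 and 3 and to 1260, 957 and 806 CPM in WT replicates 1, 2 and 3, with 14 of them lower in the knockout and none at 0 in every library. The 13 monocyte markers in the table summed to 1150 to 1208 CPM in the knockout and 1312 to 1455 CPM in WT, and 3 of the 10 tested fell. The 14 cDC2 defining markers summed to 17097 to 18282 CPM in the knockout and 20529 to 23035 CPM in WT, and 7 of the 13 tested fell. The 7 were Cd209a, Cd4, H2-Aa, H2-Ab1, H2-Eb1, Sirpa and Clec4a4. Over all tested genes 4.58% were called lower. The part of macrophage or monocyte transcripts in the lower levels of the 5 genes was not tested.

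Neutrophils, which carry Il1b and Il1r2 RNA, left few reads: 9 neutrophil markers summed to 17.3 to 48.0 CPM in the knockout and 28.9 to 40.3 CPM in WT, and 0 of 4 tested passed the edgeR test (1 at an unadjusted p under 0.05, 0 by DESeq2 and 0 by limma-voom). Knockout replicate 1 was the highest library for S100a9, S100a8, Ltf, Ngp and Camp, but not for Mmp9, Csf3r, Cxcr2 or Mpo. Mmp9 was the gene at an unadjusted p under 0.05, and it was lower in the knockout (edgeR adjusted p = 0.223). It had 15.8, 12.5 and 19.4 CPM in the knockout and 17, 22.3 and 28.7 CPM in WT. Csf3r averaged 5.61 CPM in the knockout and 7.94 CPM in WT (edgeR adjusted p = 0.457). S100a9 had 11.1, 0.103 and 0.938 CPM in knockout replicates 1, 2 and 3, against 1.82, 1.84 and 1.18 CPM in WT replicates 1, 2 and 3. S100a8 had 4.54, 0.103 and 1.53 CPM in the knockout and at most 0.691 CPM in WT, and Ltf had 4.42, 0.103 and 1.11 CPM in the knockout and at most 0.192 CPM in WT. Mpo was at 0 counts in each knockout library and in WT replicates 2 and 3, and had 5 counts in WT replicate 1. Without knockout replicate 1 the log2 fold change was -0.93 for Il1b and -0.91 for Il1r2, and both passed the edgeR test. The part of neutrophil transcripts in the levels of Il1b and Il1r2 was not tested.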

How the data were processed

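RNA sequencing was analysed in 6 libraries of splenic cDC2s, 3 Arhgef1-/- and 3 WT. The authors deposited 1 table of raw read counts per gene symbol, for which STAR, HTSeq and DESeq2 are listed as tools and mm10 as the build, per the submitters' processing notes, which give no roles or versions. Neither the strand setting nor the annotation release is stated there. Genes with low counts were removed with edgeR's filterByExpr, which left 11504 of 14788 symbols. Libraries were scaled by TMM, and the genotypes were compared with the quasi-likelihood test of edgeR 4.0.16 in R 4.3.3, with Benjamini-Hochberg adjustment over all tested genes. CPM was computed on library sizes after TMM scaling, and SE is the log2 fold change divided by the root of its F statistic. Within-library ratios added 0.5 to each count. Positions and transcript lengths come from GENCODE vM21 on mm10, where 13290 symbols matched 1 gene. DESeq2 1.42.0 and limma 3.58.1 (voom), other scalings and filters, a replicate block and leaving out each library were the alternatives. The fit was tested on simulated data. Intervals and floors cover the spread of these libraries or counting error only.

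The 10 genes and the pathway and marker lists were chosen with earlier results of these data known. All 10 were named whatever their result. From each pathway list up to 4 called genes with the smallest p were named, or the 2 with the smallest p where fewer than 2 were called. As genes like Il1b, the 5 nearest genes averaging 3 or more in log2 CPM were named. Older symbols were matched for some list genes, 1 or more of them after the table was seen.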

Additional observations from a re-analysis of the deposited data

How the results depend on the processing

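The number of the 10 genes called lower was 5 under each other scaling, filter and tool and 4 to 6 without 1 library, and the number called higher was 0 throughout. Over 39 named genes, 478 of 542 alternative values kept their side of the threshold, 58 lost the call, 6 gained it and 0 changed sign. The number of all tested genes called higher was 586, and 310 to 583 without 1 library (334, 310 and 383 without WT replicate 1, 2 and 3, and 319 without knockout replicate 2). With total counts in place of TMM the numbers higher and lower were 692 and 431, and with upper-quartile factors 500 and 583. The number called lower was 527, and 264 to 489 without 1 library (264, 315 and 351 without WT replicate 1, 2 and 3, and 311 without knockout replicate 2). In the pathway lists 6 genes were called higher, 3 with upper-quartile factors, 3 with the replicate block and 2 to 5 without 1 library, and 12 were called lower, 6 to 11 without 1 library. The difference in the log2 ratio of Il1b to Il18 was -0.09, and -0.23 to 0.06 without 1 library, with 0.06 without WT replicate 3. The cause of these changes was not tested. Replicate numbers are shared by the genotypes, but the deviations of same-numbered libraries had correlations of 0.038, -0.033 and -0.033. Not every library correlated best with its own number, so these values showed no pairing by number. They cannot show whether same-numbered libraries were prepared together. With the replicate block 496 genes were called higher and 449 lower, 5 of the 10 genes were lower, and the difference in the log2 ratio of Il1b to Il1rn was -1.72. Il1a could not be tested under the stricter filter and had no DESeq2 adjusted p. Genes near 3 counts per library, 0.256 to 0.354 CPM, were at the limit of this depth.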
